A study of Mus musculus with 10 samples.

Results

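The globin genes of red blood cells were followed in ribosome profiles of the developing mouse neocortex. The 7 genes were the embryonic alpha-type gene Hba-x (ENSMUSG00000055609), the adult alpha-type genes Hba-a1 (ENSMUSG00000069919) and Hba-a2 (ENSMUSG00000069917), the embryonic beta-type genes Hbb-bh1 (ENSMUSG00000052217) and Hbb-y (ENSMUSG00000052187), and the adult beta-type genes Hbb-bs (ENSMUSG00000052305) and Hbb-bt (ENSMUSG00000073940). They were chosen by symbol from the 22373 genes of the footprint count table. All 7 passed the filter on low counts that left 13484 genes for testing. Hbb-bh1 passed it only through its counts at E12.5 and E14, so its tests of later stages against these are not free of the filter.

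Ribosome profiling (Ribo-seq) sequences the mRNA fragments that ribosomes shield from nuclease, here called footprints. Neocortex of wild-type CD-1 mice was taken at E12.5, E14, E15.5 and E17, days of gestation, and at P0, the day of birth, with 2 libraries at each of the 5 stages and no treatment of the animals. Brains of both sexes were pooled for each library, so that a replicate is a pool, its spread cannot be assigned to single animals, and p-values measure only the spread between these pools. CD-1 is an outbred stock, and which adult beta-globin haplotype its animals carried is not given in the sources used here. The adult beta-type rows are those of the haplotype in the C57BL/6J reference.

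Hemoglobin is made of a pair of alpha-type and a pair of beta-type globin chains, each holding a heme group. In the mouse the first red cells to circulate, the primitive red cells of the yolk sac, carry hemoglobin with embryonic chains, and they also make adult chains. Definitive red cells from the fetal liver, which make adult chains, then take over the blood, a change known as the globin switch. Neurons are not the source for which these genes are known. Young red cells that still hold ribosomes and mRNA are the usual source of globin footprints in a tissue lysate that contains blood, and removal of blood before lysis is not described in the sources used here. In bulk lysates of this kind, fewer red cells and less globin mRNA per red cell cannot be told apart.

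The libraries held between 7544404 and 36129988 counts. The tissue label was checked with 8 neocortex markers, whose summed level was 668 to 1011 CPM over the 10 libraries, where CPM stands for counts scaled to a common library size with TMM factors. Of 12 red cell markers, 11 were in the table, and their summed level ran from 0.979 to 12.2 CPM. Other tissues also left signal, at levels that differed between stages. The summed level of 6 choroid plexus markers was 278 to 330 CPM at E12.5, 1121 to 1128 at E14 and 5.46 to 14.4 from E15.5 on. For 6 markers of the meninges it was 62.9 CPM or more up to E14 and 7.14 or less from E15.5 on.

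The genes sit in 2 clusters. Along chromosome 11 the reference order is Hba-x, Hba-a1, Hbq1b, Hba-a2 and Hbq1a, and on chromosome 7 Hbb-y, Hbb-bh1, Hbb-bh2, the pseudogene Hbb-bh3, Hbb-bs and Hbb-bt follow one another in the direction of transcription. Promoter sequences for 6 of the 7 genes were found among RefSeq promoters (build GRCm38.p6). The 120 bases before the annotated start are given here, 5′ to 3′ on the gene's strand, because the embryonic and the adult genes moved as separate groups and because the adult alpha pair has the same promoter. Capitals mark 4 short motifs or their reverse complements. The motif CACCC is of the kind that KLF1 is known to recognise, CCAAT is known for NF-Y and GATAA for GATA1, while TATAA is bound by the TATA-binding protein.
Hba-x (chr11:32276480-32276599, plus strand): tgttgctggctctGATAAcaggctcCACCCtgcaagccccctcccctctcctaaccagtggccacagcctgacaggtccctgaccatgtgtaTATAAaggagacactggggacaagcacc
Hba-a1 (chr11:32283552-32283671, plus strand): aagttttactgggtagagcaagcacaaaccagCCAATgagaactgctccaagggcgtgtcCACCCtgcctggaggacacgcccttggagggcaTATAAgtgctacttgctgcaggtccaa
Hba-a2 (chr11:32296372-32296491, plus strand): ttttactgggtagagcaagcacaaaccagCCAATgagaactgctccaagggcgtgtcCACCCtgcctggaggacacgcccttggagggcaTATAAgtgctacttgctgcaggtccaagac
Hbb-y (chr7:103853208-103853327, minus strand): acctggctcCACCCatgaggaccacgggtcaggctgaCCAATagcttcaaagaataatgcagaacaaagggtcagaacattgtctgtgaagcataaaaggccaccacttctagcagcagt
Hbb-bs (chr7:103827929-103828048, minus strand): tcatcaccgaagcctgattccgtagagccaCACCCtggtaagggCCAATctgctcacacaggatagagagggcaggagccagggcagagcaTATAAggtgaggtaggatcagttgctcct
Hbb-bt (chr7:103813924-103814043, minus strand): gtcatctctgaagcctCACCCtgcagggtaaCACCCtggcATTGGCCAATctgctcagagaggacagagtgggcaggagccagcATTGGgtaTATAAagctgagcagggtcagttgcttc

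The windows of Hba-a1 and Hba-a2, which also hold 50 bases after the start, were identical over 297 of 297 bases when shifted by 3 bases. Those of Hbb-bs and Hbb-bt were identical at 56.2% of 299 bases, and every other pair at 29.3 to 35.7%. Each pair was compared without gaps at its best-matching shift, so that inserted or missing bases can lower these values. Each of the 6 promoters held CACCC within 250 bases before the start, as did 52.0% of the 32851 promoters in the table. CCAAT, present in 33.8% of all promoters, was found in all of the 6 except Hba-x, and TATAA, present in 22.8%, in all except Hbb-y. GATAA was found in 6 of the 6 and in 22.6% of all promoters, counting both strands. A run of letters is no evidence of binding, and these shares are descriptions.

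Among the 7 genes, the embryonic ones had the largest fold changes between E12.5 and P0. Hbb-y, the gene of the embryonic epsilon-y chain, had 23106 and 36495 counts in the E12.5 libraries and 9015 and 9939 at E14. It then had 274 and 148 counts in the E15.5 pair, 103 and 67 in the E17 pair, and 63 and 213 in the P0 pair. The E12.5 and E14 libraries lay above those of the later stages with no overlap. Scaled to library size, the mean was 1318 ± 66.4 CPM for E12.5 (SD, n = 2), 357 ± 58.9 for E14, 7.25 ± 1.42 for E15.5, 2.89 ± 0.534 for E17 and 5.97 ± 1.251 for P0.

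Hba-x, the gene of the embryonic zeta chain, followed the same course. Its counts were 3635 and 5513 in the E12.5 pair, 1386 and 1623 in the E14 pair, 56 and 23 in the E15.5 pair, 26 and 7 in the E17 pair, and 9 and 31 in the P0 pair. The mean level was 203 ± 4.41 CPM (SD, n = 2) for E12.5, 56.3 ± 6.92 for E14 and 1.33 ± 0.506 for E15.5, and then 0.544 ± 0.398 for E17 and 0.859 ± 0.169 for P0. From E15.5 on the ranges of neighbouring stages lay close together or overlapped, and single libraries rested on as few as 7 counts.

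Hbb-bh1, which encodes the embryonic beta-H1 chain, had 436 and 769 counts at E12.5 and 188 and 201 at E14. All 6 later libraries held between 4 and 18 counts. Its mean level was 26.4 ± 3.38 CPM (SD, n = 2) for E12.5, 7.34 ± 1.37 for E14 and 0.446 ± 0.0935 for E15.5, with 0.380 ± 0.271 for E17 and 0.301 ± 0.190 for P0. The values at the last 3 stages overlapped between stages, and counts this low could not resolve a change among them. As a percentage of the Hbb-y count of the same library, Hbb-bh1 stood at 1.89 to 2.11 in the 4 libraries of E12.5 and E14. The 2 genes thus fell side by side over that step, while later ratios rest on 18 or fewer Hbb-bh1 counts.

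**Figure D1:**
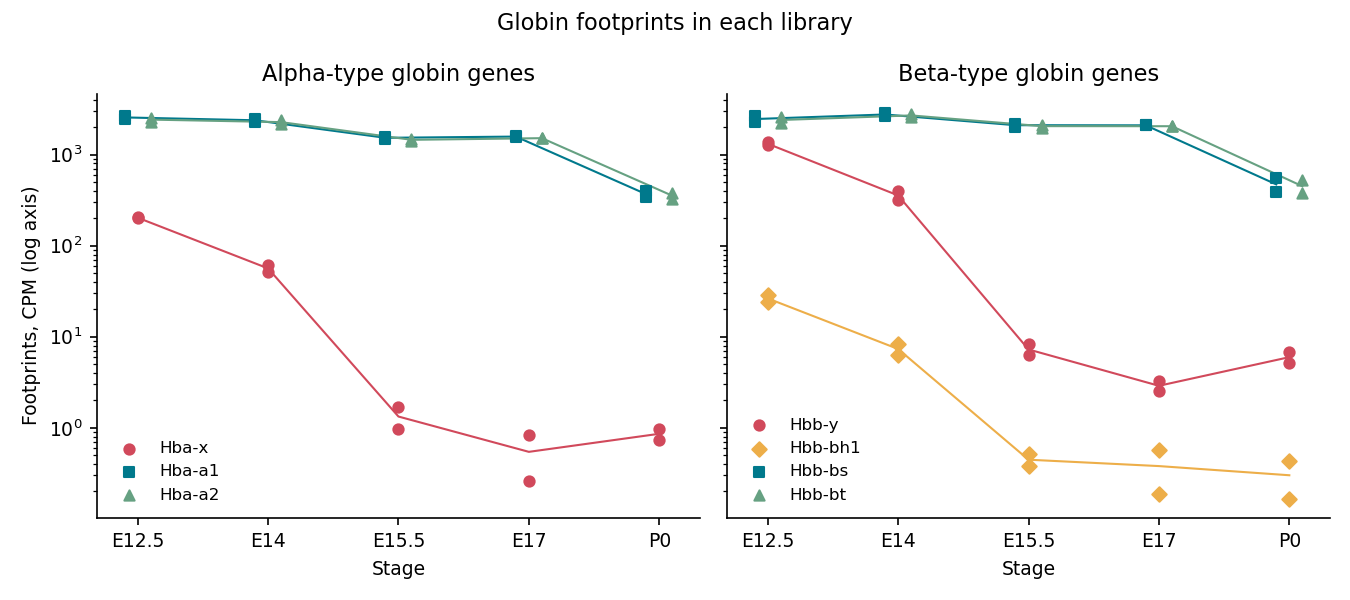
Footprints of each globin gene in each library, in CPM on a log axis, against stage, with the alpha-type genes on the left and the beta-type genes on the right. Points are the 2 libraries of a stage and lines join stage means. Hba-x, Hbb-y and Hbb-bh1 drop between E12.5 and E15.5, while the adult genes stay at 1410 CPM or more until E17 and reach 326 to 552 CPM at P0.

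The adult genes gave high counts at every stage before birth. Hba-a1, one of the copies that encode the adult alpha chain, had 48562 and 65675 counts in the E12.5 pair, 56441 and 71842 in the E14 pair, 52272 and 35211 in the E15.5 pair, 49986 and 41832 in the E17 pair, and 3624 and 14284 in the P0 pair. In CPM the means were 2564 ± 152 (SD, n = 2), 2385 ± 153, 1531 ± 62.4, 1579 ± 11.8 and 368 ± 37.7 in stage order. The E12.5 and E14 libraries overlapped, those of E15.5 and E17 lay below them, and those of P0 lay lower again. Hba-a2, the other copy, moved with it, from 2426 ± 164 CPM at E12.5 to 354 ± 38.7 at P0.

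Hbb-bs, a gene of the adult beta chain, had 41331 and 70773 counts in the E12.5 pair, 65244 and 83313 in the E14 pair, 72742 and 47846 in the E15.5 pair, 65924 and 56032 in the E17 pair, and 5079 and 16327 in the P0 pair. Its mean level was 2460 ± 264 CPM (SD, n = 2) for E12.5, 2761 ± 171 for E14, 2106 ± 121 for E15.5, 2099 ± 7.29 for E17 and 471 ± 115 for P0. Only the P0 libraries lay outside the range of the rest, at 552 and 390 CPM. Hbb-bt, the second adult beta-type gene, went from 2402 ± 256 CPM at E12.5 to 450 ± 106 at P0.

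The near-equal values of the adult copies bear on what these rows measure. Hba-a1 took 50.8 to 51.5% of the counts of its pair in every library, and Hbb-bs took 50.5 to 51.3% of its own. In counts, Hba-a2 was 3.31 to 5.96% below Hba-a1, and Hbb-bt was 2.02 to 4.98% below Hbb-bs. Reads that match several places were kept by the authors' alignment. How the table counts a read that matches both copies is not stated, so the 2 rows of a pair may hold many of the same reads and cannot be taken as separate measurements. In the plot of copies, neither pair leaves the band between 50 and 52% at any stage.

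**Figure D2:**
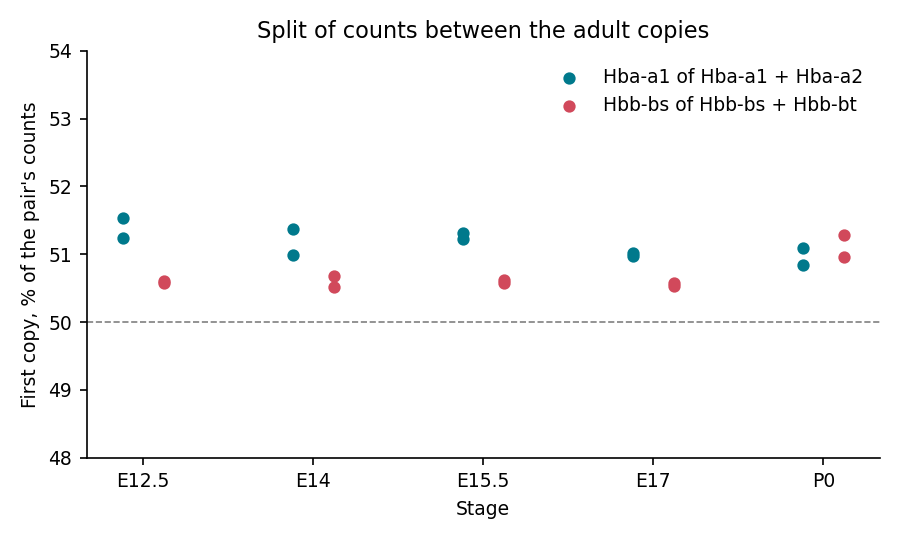
Percentage of the counts of each adult pair that fell in its first copy (Hba-a1 or Hbb-bs), for each library by stage. The vertical axis runs from 48 to 54% and does not start at 0, and the dashed line marks an equal split. All 20 points lie between 50.5 and 51.5%.

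The first step, from E12.5 to E14, asked whether the embryonic genes already fell within early neurogenesis. They did. By limma-voom, 3 genes were called at an adjusted p under 0.05 with a log2 fold change of at least 0.32 in size, and they were Hba-x, Hbb-y and Hbb-bh1, all lower at E14. Of all genes tested, 0.638% were called at this step and 0.141% were called lower. The log2 fold changes were -1.86 (SE 0.18) for Hba-x, -1.89 (SE 0.17) for Hbb-y and -1.87 (SE 0.20) for Hbb-bh1, each with an adjusted p of 0.0164. These are falls of 3.62-fold, 3.72-fold and 3.65-fold. The 4 adult genes were not called, with log2 fold changes from -0.10 to 0.17 and adjusted p-values from 0.679 to 0.753. These calls were lost with any one of the E12.5, E14 or E15.5 libraries left out. Such fits leave a single library in a stage, and nearly all calls of the whole table were lost in them too. The log2 fold changes of the 3 embryonic genes stayed between -2.06 and -1.66. With the replicate number as a block, the call of Hbb-bh1 was lost (adjusted p = 0.0598), in a fit that called 4 of 13484 genes.

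Between E14 and E15.5 the embryonic genes dropped much further. Hbb-y fell 48.8-fold (log2 fold change -5.61, SE 0.19, adjusted p = 1.69e-05), Hba-x fell 41.4-fold (-5.37, SE 0.29, adjusted p = 4.43e-05) and Hbb-bh1 fell 15.3-fold (-3.94, SE 0.44, adjusted p = 0.000392). The adult alpha genes fell too, by far less. Hba-a1 changed by -0.64 on the log2 scale (SE 0.11, adjusted p = 0.00248) and Hba-a2 by -0.64 (SE 0.11, adjusted p = 0.00297). Hbb-bs and Hbb-bt, both at -0.39, were not called, with adjusted p-values of 0.1001 and 0.0923. They passed the threshold with sample quality weights, which called 6502 of 13484 genes, and with only these 2 stages, which called 6338 of 12729. Without either P0 library they stayed at -0.39. Total counts alone moved the median of all genes from -0.01 to 0.29 at this step. Over the alternative fits Hbb-bs ranged from -0.46 to -0.0966 and Hbb-bt from -0.46 to -0.0970. Hba-a1 ranged from -0.71 to -0.34 and Hba-a2 from -0.73 to -0.35. In all 5 of 7 genes were called, against 36.1% of all genes tested, and all 5 were lower, against 19.6%. The called genes take in both Hba-a1 and Hba-a2, whose rows may share reads, so they cannot all be taken as separate measurements.

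Markers of several other tissues moved at the same step, where 19.6% of all genes tested were called lower. All 6 meninges markers were called lower, with a summed level of 62.9 to 71.3 CPM at E14 and 2.53 to 2.89 at E15.5, and so were all 5 choroid plexus markers that were tested. The 8 endothelial markers were all called lower, from a summed 27.7 to 35.4 CPM down to 8.28 to 9.64. Other lists fell only in part, with 4 of 8 tested markers of microglia and white blood cells and 1 of 4 pericyte markers called lower. Both platelet markers that were tested, Pf4 and Ppbp, were called lower, and the summed level of the 5 platelet markers went from 12.9 to 14.6 CPM at E14 down to 0.663 to 0.718 at E15.5. The summed level of the 11 red cell markers other than globins went from 10.01 to 10.3 CPM down to 6.38 to 6.96, most of it from Alas2, with stage means of 8.34 CPM for E14 and 5.51 CPM for E15.5. The part of these tissues in the fall of the embryonic globins was not tested.

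From E15.5 to E17 the adult genes held close values while Hbb-y fell again. Hbb-y was the 1 gene of 7 that was called (9.04% of all genes tested, and 3.43% lower), with a log2 fold change of -1.32 (SE 0.24, adjusted p = 0.0179) that corresponds to a 2.50-fold fall. The call was lost without any one of the 4 libraries of these stages. Such fits leave a single library in a stage, and nearly all calls of the whole table were lost in them too. With single libraries left out, the log2 fold change of Hbb-y stayed between -1.52 and -1.11. Hba-x was at -1.40 (SE 0.51, adjusted p = 0.127) and Hbb-bh1 at -0.37 (SE 0.64, adjusted p = 0.785). The adult genes were between -0.00355 and 0.06 on the log2 scale, with SE of 0.11 to 0.17.

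At birth the adult genes dropped. From E17 to P0, Hba-a1 fell 4.31-fold (log2 fold change -2.11, SE 0.11, adjusted p = 0.000168), Hba-a2 4.30-fold, Hbb-bs 4.51-fold (-2.17, SE 0.16, adjusted p = 0.000489) and Hbb-bt 4.61-fold. Hbb-y went the other way and was called higher, at 0.95 (SE 0.25, adjusted p = 0.0318). These 5 of 7 called genes compare with 20.5% of all genes tested, 9.46% called higher and 11.1% called lower. The called genes take in both rows of each adult pair, which may share reads and cannot be taken as separate measurements. Hba-x, at 0.63 (SE 0.55), and Hbb-bh1, at -0.78 (SE 0.73), were not called. The Hbb-y call was lost without either E12.5 library (adjusted p = 0.0509 and 0.0501), without either E17 library (0.0952 and 0.155), without the first P0 library (0.0515) and with sample quality weights (0.206). In a fit of E17 and P0 alone none of the 7 genes was called, and 0 of all 12995 genes tested in it. The 4 adult genes were at an adjusted p of 0.0865 there, with log2 fold changes of -2.09 to -2.19.

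**Figure D3:**
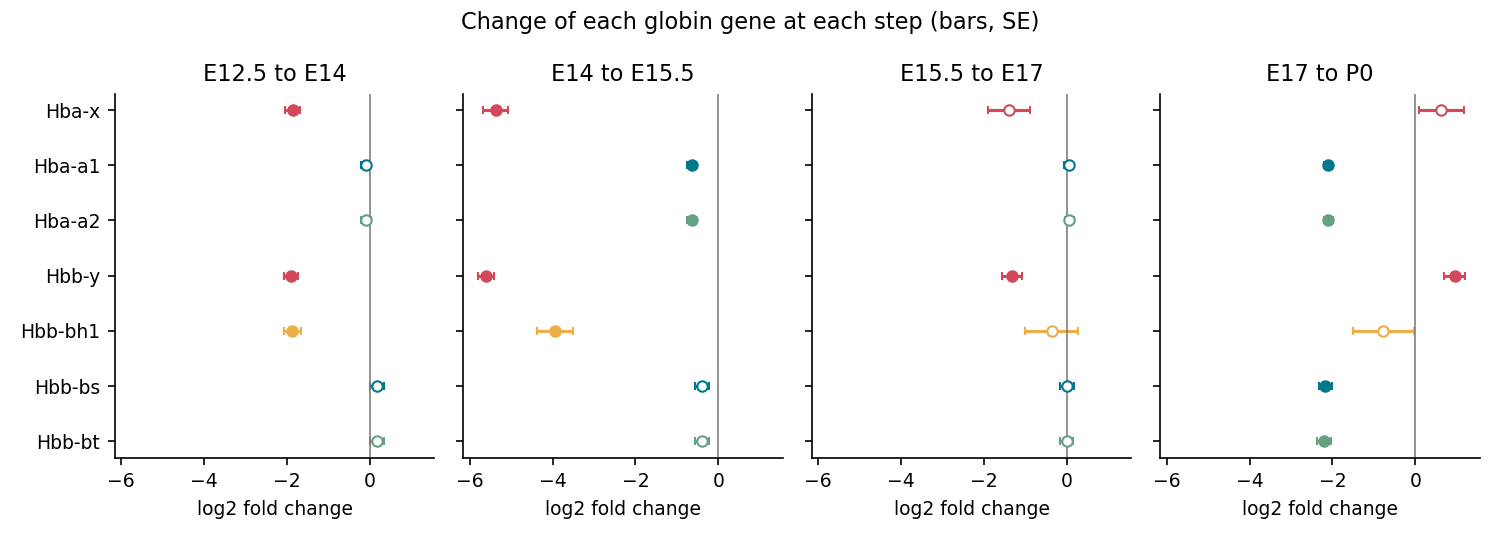
Log2 fold change of each globin gene at each of the 4 steps between neighbouring stages, later over earlier, from the limma-voom fit. Bars are SE, filled points were called and open points were not. The embryonic genes move at the first 2 steps, by up to -5.61 for Hbb-y. Both adult pairs, whose rows may share reads, fall at the last step, by -2.10 to -2.21.

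Against E12.5, all 7 globin genes were lower at P0, where 62.1% of all genes tested were called and 32% were called lower. The log2 fold changes were -8.00 for Hba-x, -7.87 for Hbb-y and -6.94 for Hbb-bh1, and -2.80, -2.78, -2.40 and -2.43 for Hba-a1, Hba-a2, Hbb-bs and Hbb-bt. At E15.5 and at E17, 5 of 7 were called lower than at E12.5, where 46.2% and 54.7% of all genes were called and 24% and 27.8% were called lower, and the exceptions were Hbb-bs and Hbb-bt at log2 fold changes of -0.22 and -0.22. The moderated F test over the 5 stages passed for all 7 genes, with adjusted p-values of 1.45e-06 to 4.68e-05, and for 63.8% of all genes tested. These comparisons share the E12.5 libraries. Their tallies of globin genes count the rows of an adult pair singly, although such rows may share reads and cannot be taken as separate measurements.

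The direction for the adult beta genes depends on library scaling. The scaling matters here because total counts alone move the median of all genes, which under TMM factors sat at -0.02 in the comparisons of E15.5 and of E17 with E12.5, to 0.34 and 0.40. On that scale Hbb-bs stood at 0.13 and 0.19 in these comparisons and Hbb-bt at 0.13 and 0.19, below the median gene in each, and the call of Hba-a1 and Hba-a2 from E12.5 to E17 was lost. Total counts also lowered the share of all genes called lower, to 15.1% in place of 24% for E15.5, and to 15.9% in place of 27.8% for E17.

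A share within a library does not depend on such scaling. It is free of how much blood a library held only if all globin counts came from that blood, which was not tested. The embryonic share of beta-type counts, Hbb-y and Hbb-bh1 over all 4 beta-type genes, was 22.4% (exact Clopper-Pearson 95% interval 22.1 to 22.6) and 21.04% (20.9 to 21.2) in the E12.5 libraries. The E14 libraries gave 6.67 and 5.79%, and those of E15.5 gave 0.202 and 0.166%. The lowest values came at E17, with 0.0928% (0.0770 to 0.111) and 0.0649%. At P0 it was 0.672% (0.521 to 0.852) and 0.682%, above both E17 libraries and both E15.5 libraries. Counts were not divided by gene length, so these are shares of counts and are read only between stages.

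The embryonic share of alpha-type counts, that of Hba-x, took the same path at lower values. It was 3.69 and 4.15% in the E12.5 pair, 1.24 and 1.15% in the E14 pair, 0.0548 and 0.0335% in the E15.5 pair, 0.0265% (0.0173 to 0.0389) and 0.00853% in the E17 pair, and 0.126% (0.0577 to 0.239) and 0.111% in the P0 pair. Mean beta-type shares were 21.7 ± 0.937% at E12.5 and 0.0788 ± 0.0197% at E17 (SD, n = 2), a 275-fold difference, and mean alpha-type shares were 3.92 ± 0.320% and 0.0175 ± 0.0127%, a 224-fold difference. From E17 to P0 the beta-type share was 8.59-fold and the alpha-type share 6.76-fold higher, with no overlap of libraries in either class. The rise in share went with the drop of the adult genes: the embryonic genes together made up 0.000511 and 0.000330% of all counts at E17 and 0.00101 and 0.000703% at P0, and the adult genes 0.794 and 0.807% and then 0.226 and 0.168%.

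With 2 libraries against 2, the exact two-sided permutation test cannot give a p under 0.333, which it gave for each step in both shares. The intervals cover counting error only, and are too narrow if reads were counted in both copies of a pair. If each adult pair were counted from its higher copy alone, the beta-type share would be 35.4% at E12.5 and 0.156% at E17 and the alpha-type share 7.35 and 0.0344%, so the size of a share depends on how copies were counted while its order over the stages does not. The libraries fell into separate groups, those of E12.5 and E14 above 5% of beta-type counts and the others below 1%, so no correlation with stage is given for these shares.

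**Figure D4:**
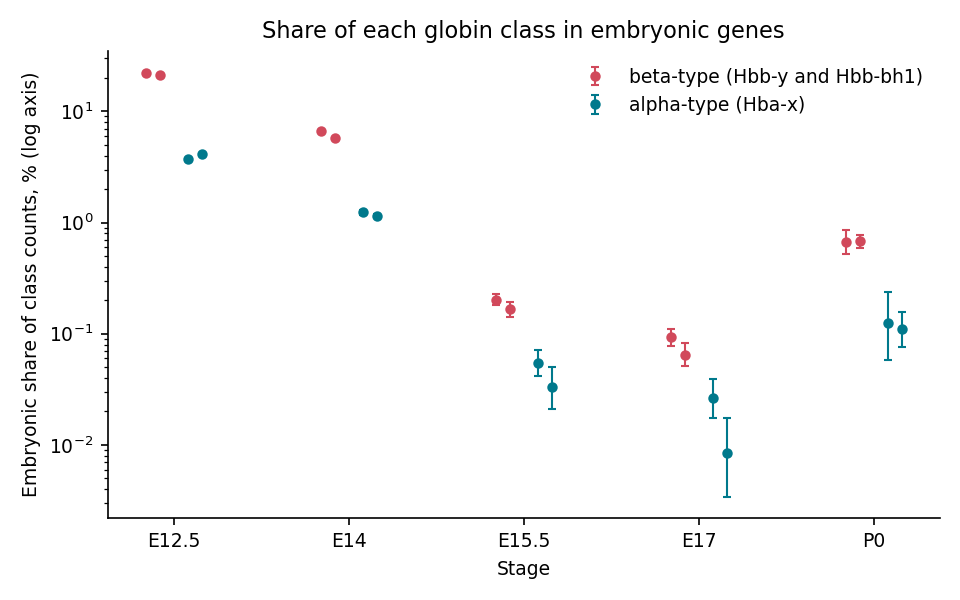
Embryonic share of beta-type and of alpha-type globin counts in each library, in percent on a log axis, by stage. Bars are exact 95% binomial intervals and cover counting error only. Both classes drop from E12.5 to E17, to 0.0649% and 0.00853% in their lowest libraries, and stand higher again at P0.

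The amount of globin signal and its balance were also measured per library. The 7 genes held 0.953 and 0.936% of all counts in the E12.5 pair, 0.940 and 0.876% in the E14 pair, 0.786 and 0.728% in the E15.5 pair, 0.794 and 0.807% in the E17 pair, and 0.227 and 0.169% in the P0 pair. The size of this share depends on the total it is taken over. With 66 histone genes left out of the total, its stage means were 1.48, 1.37, 0.923 and 0.919% from E12.5 to E17. It depends on how copies were counted too. With the higher copy of each adult pair alone, its stage means were 0.544, 0.480, 0.386, 0.407 and 0.101% in stage order. The P0 libraries stood apart from the rest with both copies or only the higher copy counted. Among the others, those of E12.5 and E14 lay above those of E15.5 and E17, and with the libraries in such groups no correlation with stage is given for this share either.

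Alpha and beta chains must be made in matched amounts for hemoglobin to assemble. The count ratio of alpha-type to beta-type genes was 0.843 ± 0.130 for E12.5 (SD, n = 2), 0.810 ± 0.00320 for E14, 0.717 ± 0.0106 for E15.5, 0.745 ± 0.00816 for E17 and 0.792 ± 0.107 for P0. The E12.5 libraries gave 0.935 and 0.751 and the P0 libraries 0.716 and 0.868, and these ranges take in the values of most other stages. Within the adult genes the ratio was 1.16 and 0.911 at E12.5, 0.860 and 0.848 at E14, and 0.710 to 0.752 in the 4 libraries of E15.5 and E17. Within the embryonic genes it was 0.148 to 0.160 in the 4 libraries of E12.5 and E14. As ratios of counts that were not divided by length, they say nothing of the ratio of chains.

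Genes that act with the globins in red cells were described from lists of known members. Heme is made by a chain of enzymes that starts with ALAS, for which Alas2 is the red cell gene and Alas1 the gene of other tissues. Alas2 had 173 and 250 counts in the E12.5 pair, 197 and 252 in the E14 pair, 189 and 126 in the E15.5 pair, 159 and 148 in the E17 pair, and 6 and 33 in the P0 pair. Like the adult alpha genes it was lower at E15.5 than at E14, with a log2 fold change of -0.59 (adjusted p = 0.00492), and lower at P0 than at E17, at -2.76 (adjusted p = 0.000421), and it was not called at the other 2 steps. Alas1 was not called at any of the 4 steps and held 38.1 to 44.6 CPM as stage means. Slc25a37, the mitoferrin that brings iron to heme synthesis in red cells, was lower at P0 than at E17, with a log2 fold change of -2.05 (adjusted p = 0.00817). Of the 12 heme synthesis genes, all tested, 2 were called lower and 0 higher at that step, where 11.1% of all genes tested were called lower and 9.46% higher (median log2 fold change -0.02, and -0.02 over all genes). From E12.5 to P0 5 were called lower and 2 higher, beside 32% and 30.1% of all genes tested (median -0.16, and -0.01 over all genes).

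Over the 10 libraries, Alas2 was the gene whose log2 CPM was most like that of the summed adult globins, at Pearson r = 0.99 among 9208 genes whose mean count reached 100. The next were Pag1, Dpy19l1, Cdk2ap1 and Ube2s, with r of 0.98 each. For the summed embryonic globins the closest were Eef1d, Plin3, Gm49342, Nudcd2 and Rfx4, all with r of 0.99, and Alas2 ranked at 2747 with r = 0.62. These are descriptions over 10 libraries that share stages and depth. The genes nearest to the embryonic globins moved far less in size, since Eef1d, a translation elongation factor subunit, had stage means of 582 CPM at E12.5 and 253 CPM at E15.5.

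**Figure D5:**
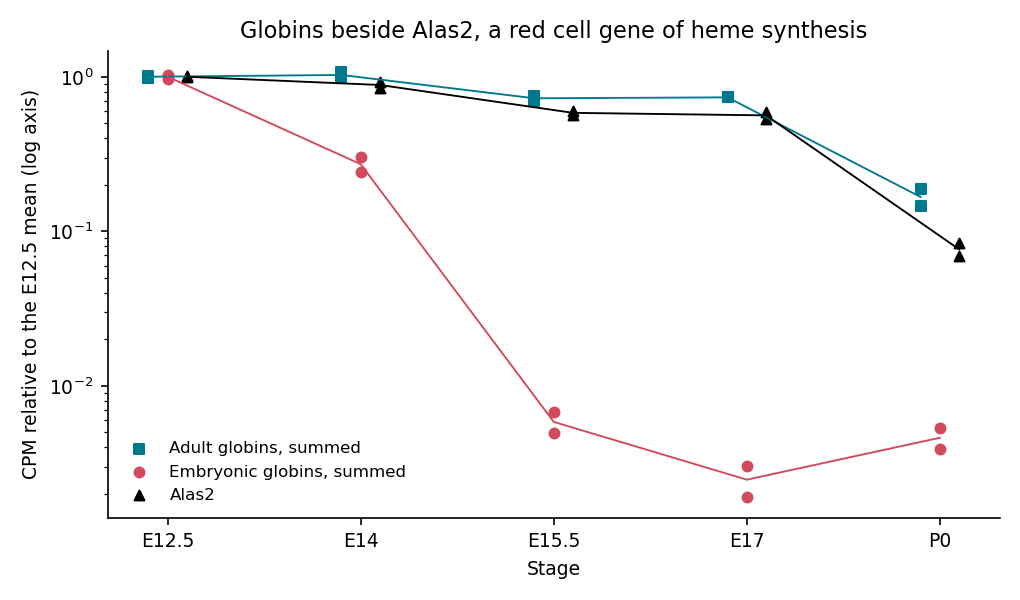
CPM of the summed adult globins, the summed embryonic globins and Alas2 in each library, divided by the E12.5 mean of each and drawn on a log axis by stage. Points are libraries and lines join stage means. Alas2, with stage means of 9.43 CPM at E12.5 and 0.720 CPM at P0, falls further than the adult globins. Over the same span the adult alpha pair went from 4990 to 721 CPM and the adult beta pair from 4862 to 921 CPM. The embryonic globins lie below both Alas2 and the adult globins from E14 on.

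Other red cell genes were thin in these libraries. Of the 11 red cell markers in the table, 9 had at most 13 counts in any library, and the number of the 11 at 0 in both libraries of a stage was 0 at E12.5 and 4 at P0. Summed, the 11 markers held 12.005 to 12.2 CPM in the E12.5 pair, 10.01 to 10.3 in the E14 pair, 6.38 to 6.96 in the E15.5 pair, 5.75 to 6.19 in the E17 pair and 0.979 to 1.15 in the P0 pair. They dropped with the adult globins at birth, and whether this is a matter of blood in the lysate was not tested.

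The membrane list held 16 genes, of which 8 were tested. From E12.5 to P0 4 were called higher and 4 lower, in a comparison that called 30.1% of all genes tested higher and 32% lower. Add2 (adducin) and Dmtn (dematin), skeletal proteins that are also made in neurons, were higher, at 2.22 and 4.32 on the log2 scale, and Gypc, which encodes glycophorin C, and Epb41, the band 4.1 protein, were lower, at -3.00 and -0.93. Among enzymes and other red cell genes, 10 of 17 were tested. Tfrc, the transferrin receptor that supplies young red cells with iron, was lower in the E15.5 pair than in the E14 pair (log2 fold change -1.39, adjusted p = 0.000555). Car2, a carbonic anhydrase, fell by 1.74 on the log2 scale between E14 and E15.5. At that step 4 of the 10 were called lower and 1 higher, where 19.6% of all genes tested were called lower. From E17 to P0, where the adult globins fell, 2 of the 10 were called higher and 0 lower (median log2 fold change 0.36). Of all genes tested, 9.46% were called higher and 11.1% lower there. Prdx2, a peroxidase that is abundant in red cells and brain, stayed between 2438 and 3473 CPM as stage means, and from E12.5 to P0 5 of the 10 were called lower and 3 higher, against 32% and 30.1% of all genes tested.

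Transcription factors of red cells were at low levels or are shared with neural cells. Of 9 listed, 4 were tested: Ldb1, Lmo2, Ikzf1 and Tal1. The factors Klf1 and Gata1, which drive globin transcription, had at most 7 and 3 counts in any library. Lmo2, which bridges DNA-binding factors in blood and vessel cells, fell from E14 to E15.5 (log2 fold change -1.12, adjusted p = 0.00181), and no other of the 4 was called at that step. The median of the 4 from E12.5 to P0 was -0.64, with 1 called lower and 0 higher, where 32% and 30.1% of all genes tested were.

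Of 15 genes known to control the globin switch, 12 were tested, and from E12.5 to P0 3 were called higher and 6 lower (median log2 fold change -0.48), beside 30.1% and 32% of all genes tested (median -0.01). Bcl11a, a repressor of embryonic and fetal globin genes in red cells that is also made in cortical neurons, stood at 145 ± 7.9 CPM for E12.5 and rose to 286 ± 7.9 for P0 (SD, n = 2, log2 fold change 0.98, adjusted p = 2.66e-05). Its step from E14 to E15.5 was 0.54 (adjusted p = 0.00182). Sox6, which acts with it in red cells and is made in neural cells too, went down over the same span, at -1.38, as did Myb, at -3.03, with 86 and 126 counts at E12.5 and 3 and 26 at P0. Chd4 and Nfia were also lower at P0, at -1.05 and -1.40, and Nfix was higher at 1.02. Bulk footprints do not say in which cells any of these were translated.

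Globins outside the set of 7 did not follow them. The theta globin genes Hbq1a and Hbq1b, which lie in the alpha cluster, are near copies of each other, so that reads may be shared. Hbq1a had 3 to 6 counts in each library of E12.5 and E14, 17 to 23 at E15.5 and E17, and 14 and 91 at P0. Hbq1b had 1 to 8, 27 to 39, and 19 and 91. Both were called higher from E14 to E15.5, at 1.73 and 1.91 on the log2 scale (adjusted p = 0.0277 for each), where the adult alpha genes of the same cluster were lower. Ngb, neuroglobin of neurons, had 0 counts up to E15.5, 1 and 2 at E17, and 10 and 34 at P0. Cygb, cytoglobin, rose from a stage mean of 4.31 CPM for E12.5 to one of 10.1 for P0. All 4 of the tested genes of this list of 9 were called higher at P0 than at E12.5, where 30.1% of all genes tested were. Mb, myoglobin of muscle, had at most 9 counts in a library.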

How the data were processed

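Ribosome-protected fragments of 10 neocortex libraries were analysed, with groups taken from the stage labels. The authors deposited whole-number footprint counts per gene. Per the study's methods, lysates were digested with RNases T1 and A without cycloheximide, duplicate sequences were removed and reads were aligned with STAR (version 2.7.0 in the submitters' processing notes, another in the methods) to coding sequences and to the genome of GENCODE release M12, keeping reads with several matches. Which of these alignments the count table came from is not given in the sources used here. Symbols matched 22274 of 22373 identifiers.

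Genes with at least 32 footprints in the 2 libraries of a stage were tested with limma 3.58.1 (voom) and TMM factors from edgeR 4.0.16 in R 4.3.3, with 1 coefficient per stage, two-sided moderated tests and Benjamini-Hochberg adjustment over 13484 genes. A call needed an adjusted p under 0.05 and a log2 fold change of at least 0.32 in size. There were 7 comparisons, made up of the 4 steps and of the last 3 stages with E12.5. On simulated counts of the E14 to E15.5 step, with 13484 genes, 68.1% of 72 genes changed 2-fold and 95.8% of 71 changed 4-fold were recovered. Of 57 genes changed 1.5-fold only 10.5% were recovered. The simulation changed a far smaller part of the genes than the 36.1% called at this step, which makes the adjusted threshold stricter. These rates therefore do not measure recovery in the real fit. Shares and permutation tests used SciPy 1.17.1. Likeness used log2(CPM + 0.5). Alternatives were edgeR quasi-likelihood, DESeq2 1.42.0, other scaling, filters, weights and samples, summed copies and a replicate block. Genes named were the 7 globins, up to 4 genes of highest mean count per list, list members singled out as called, and the 5 genes most like each globin sum. Klf1, Gata1, Mb, Myb and Alas2's ranking against the embryonic sum were added after their values were seen. The members and lists were chosen with earlier results of these data known. Some members of the lists are not reported here.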

Additional observations from a re-analysis of the deposited data

How the results depend on the processing

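The count of globin genes called kept within 1.5 times its reported value under every alternative from E14 to E15.5 and in the comparisons of E15.5 or P0 with E12.5. This count takes the rows of an adult pair singly, although they may share reads. From E12.5 to E14 it ranged from 0 to 3 as single libraries were left out, and from E15.5 to E17 from 0 to 1. DESeq2 and sample quality weights each called 2 globin genes from E15.5 to E17, adding Hba-x. Of all 13484 genes tested they called 1023 and 3717 at this step. With only the 2 stages compared, 0 globin genes were called from E17 to P0 by limma. That fit called 0 of all 12995 genes tested, while 2962 had an unadjusted p under 0.05. On all libraries edgeR and DESeq2 each called 5 globin genes, and 2482 and 2211 of all 13484 genes. With total counts only, 3 were called from E12.5 to E17. Of 929 recomputed log2 fold changes of globin genes, 863 kept their side of the threshold and direction, 36 lost the threshold, 10 passed it and 20 changed sign. The adult genes from E15.5 to E17 sat near 0 and changed sign between settings: Hbb-bs and Hbb-bt turned to 0.0121 and 0.0146 with DESeq2, 0.0588 and 0.0612 with total counts only and 0.0139 and 0.0162 with DESeq2 size factors. Leaving out single libraries, Hba-a1 ranged from -0.00322 to 0.0866, Hbb-bs from -0.0695 to 0.0547, Hbb-bt from -0.0656 to 0.0556 and Hbb-bh1 from -1.19 to 0.32 at this step, and from E17 to P0 Hbb-bh1 ranged from -1.46 to 0.46 and Hba-x from -0.0876 to 1.49. Set against E12.5 with total counts only, Hbb-bs turned to 0.131 at E15.5 and 0.189 at E17, and Hbb-bt to 0.130 and 0.191.

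Counting only the higher copy of each adult pair gave embryonic beta-type shares of 35.4, 11.6, 0.363, 0.156 and 1.32% in stage order, and alpha-type shares of 7.35, 2.30, 0.0861, 0.0344 and 0.232%. The globin share of all counts was 1.48, 1.37, 0.923 and 0.919% from E12.5 to E17 with 66 histone genes taken out of the total, and 1.14, 1.05, 0.716 and 0.725% over TMM-scaled totals. The libraries were not taken as paired by replicate number, which would need every pair of stages to pass 0.1: over 4559 genes, deviations from the stage means of same-numbered libraries correlated between -0.64 and 0.43 in 10 pairs of stages, 5 of them over 0.1. With the replicate block the call of Hbb-bh1 from E12.5 to E14 was lost (-1.84, adjusted p = 0.0598), and no other call of a globin gene changed. The alpha to beta ratio per coding length was not run, as no coding lengths were used here. The causes of these changes were not tested. Depth limits Hbb-bh1 and Hba-x after E14, with 4 to 56 counts per library.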
